A study of Mus musculus with 4 samples.

Results

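Methylated DNA at the genes of the insulin-like growth factor (IGF) and growth hormone axis was measured in mouse fetal liver by immunoprecipitation of methylated DNA and hybridisation to a tiling array. The 7 genes were Igf1, Igf1r, Igfbp1, Igfbp3, Igfbp2, Insr and Ghr, and their probes were taken by position on build mm9 in 6 windows, of which Igfbp1 and Igfbp3 share a window. The windows held 176 of the 415749 probes used and 23 of the 56653 regions into which neighbouring probes were joined. The 55 Igf1 probes ran from 87318374 to 87328403 on chromosome 10, and the 22 Igf1r probes lay on chromosome 7. Igfbp1 and Igfbp3 had 41 probes on chromosome 11, Igfbp2 had 21 on chromosome 1, Insr 19 on chromosome 8 and Ghr 18 on chromosome 15. The files name probes by position alone, and mm9 gene models were not used here, so promoter, exon and intron are not assigned.

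Both groups were C57BL/6J fetuses whose livers were taken on gestation day 18. Control dams ate chow freely, and food restricted dams received 50% of the amount eaten by controls from gestation day 10 to 17. Each group was 1 pool of liver DNA labelled N = 6, with no statement of whether this counts fetuses or litters. For each pool there were 2 arrays, which differ in which dye marks which DNA. Slide 1 carried both pools with the precipitated DNA in Cy5, and slide 2 carried both with it in Cy3. The 2 arrays of each pool repeat the same sample technically, so the comparison of the pools has no replicate check and no p-value was computed. No RNA was measured, and the liver label was not checked against marker genes.

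Growth hormone from the pituitary acts on the liver through its receptor, and the liver in turn releases IGF1 into the blood. In the fetus the dependence on growth hormone is weaker, and nutrient supply and insulin weigh more on IGF1 output. IGF1 acts through the IGF1 receptor, a tyrosine kinase related to the insulin receptor, and in blood most IGF1 is carried by IGF binding proteins, which set how much of it reaches the receptor.

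The sequences upstream of 4 members are shown because the signal of this assay rises with both the methylation and the CpG density of a fragment, and these genes span the range of that density. They are the 250 bases before the annotated start from RefSeq, on build GRCm38.p6 and not mm9, so they were not placed against the probes. Each reads 5' to 3' on the gene's strand, with every CG in capitals. The Igf1 sequence is chr10:87860861-87861110 on the plus strand, that of Igf1r chr7:67952007-67952256 on the plus strand, that of Igfbp1 chr11:7197537-7197786 on the plus strand and that of Igfbp3 chr11:7213924-7214173 on the minus strand.
Igf1: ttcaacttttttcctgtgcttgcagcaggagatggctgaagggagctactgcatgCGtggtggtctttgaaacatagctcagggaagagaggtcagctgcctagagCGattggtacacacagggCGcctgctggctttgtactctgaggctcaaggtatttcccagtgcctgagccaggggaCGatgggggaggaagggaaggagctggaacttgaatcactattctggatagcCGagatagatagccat
Igfbp1: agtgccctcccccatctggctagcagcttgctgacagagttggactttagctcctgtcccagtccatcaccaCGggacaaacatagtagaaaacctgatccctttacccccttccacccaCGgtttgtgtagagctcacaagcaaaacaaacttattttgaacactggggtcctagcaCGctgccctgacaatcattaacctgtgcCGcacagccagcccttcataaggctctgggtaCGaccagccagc
Igfbp3: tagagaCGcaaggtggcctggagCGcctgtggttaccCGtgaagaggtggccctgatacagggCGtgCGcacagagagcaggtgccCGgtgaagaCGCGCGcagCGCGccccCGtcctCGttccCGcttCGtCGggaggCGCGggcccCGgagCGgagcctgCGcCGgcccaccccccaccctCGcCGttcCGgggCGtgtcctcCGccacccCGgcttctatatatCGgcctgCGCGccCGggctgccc
Igf1r: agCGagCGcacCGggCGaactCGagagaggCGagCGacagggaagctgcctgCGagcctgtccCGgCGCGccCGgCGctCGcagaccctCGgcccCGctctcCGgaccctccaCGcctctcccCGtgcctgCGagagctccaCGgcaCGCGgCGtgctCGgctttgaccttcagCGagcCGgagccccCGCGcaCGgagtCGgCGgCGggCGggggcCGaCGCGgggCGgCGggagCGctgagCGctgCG

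Counted over 300 bases, from 250 before to 50 after the start, Igf1 had 6 CG and Igfbp1 had 8, close to the median of 7 over all promoter windows of the table. Igfbp3 had 37 CG and Igf1r had 48, and 5.58% and 1.22% of all windows held at least as many. The ratio of observed to expected CG was 0.31 for Igf1, 0.38 for Igfbp1, 0.96 for Igfbp3 and 1.11 for Igf1r. Igfbp2 had 2 windows with 18 and 14 CG, and Ghr had 2 windows with 8 and 23. The motif CG is its own reverse complement, so its count is the same on both strands, and 94.6% of all windows held at least 1. In all, 6 of the 7 members matched the table. These counts describe letters in the windows and are no measure of methylation.

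M denotes enrichment: the precipitated over the total DNA signal of a pool, in log2, with the median of each array set to 0. It is a relative level and not a percentage of methylated cytosines, and part of the difference between positions can come from CpG density and from the probe itself. D subtracts control M from food restricted M within a slide. Pairs of values are in the order slide 1, slide 2, and values before "against" are those of the control pool. A probe or region was called higher where D was 0.5 or more on both slides, and lower where it was -0.5 or less on both. D had a median of 0.03 over all probes on slide 1 and of 0.10 on slide 2. In the precipitated channel 72.0% to 72.2% of all probes were well above background on the control arrays and 79.9% to 80.6% on the food restricted arrays. At the 176 probes of the axis the shares were 79.0% to 80.1% and 87.5% to 90.9%. The deposited value table gives the food restricted array of slide 1 and the control array of slide 2 each other's scanner values, and the scanner files, whose ratios run as the dyes in the labels require, were followed. Which arrays belong to which pool is not settled by the files, so the direction of every D rests on the assignment of the scanner files. Each pool also kept the same array position on both slides, so position and pool cannot be told apart.

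**Figure D1:**
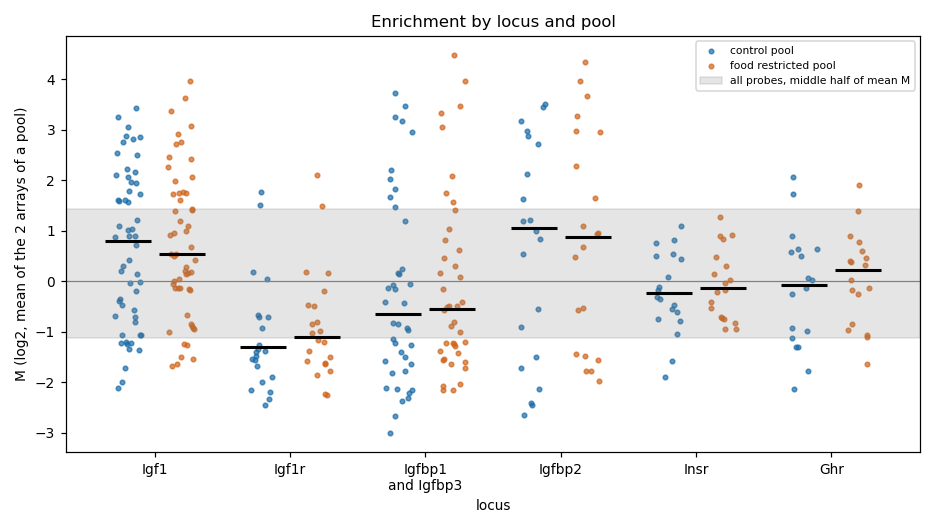
Enrichment M (log2 ratio, vertical axis) at the 6 loci. Each point is 1 probe at the mean of the 2 arrays of a pool, black bars are the mean of the 2 arrays' medians, and the grey band runs from -1.13 to 1.43, the quartiles of all probes. Igf1 and Igfbp2 have their medians above 0 in both pools, and Igf1r has them near or below the lower edge of the band.

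The 6 loci stood in the same order of median M in both pools. The median M over probes was highest at Igfbp2. There it was 1.15 and 0.97 on the control arrays of slides 1 and 2 and 0.94 and 0.84 on the food restricted arrays. Although these medians were lower in the food restricted pool, the median of the probes' own differences was 0.11 on slide 1 and 0.21 on slide 2. Igf1 followed with 0.78 and 0.81 in the control pool and 0.59 and 0.49 in the food restricted pool. Here the food restricted arrays were below the control arrays on both slides, yet the median of the probes' own differences was -0.08 on slide 1 and 0.10 on slide 2. Ghr had a median M of -0.21 and 0.06 in the control pool and 0.26 and 0.18 in the food restricted pool. Insr had -0.16 and -0.28 in the control pool and -0.17 and -0.08 in the food restricted pool. The shared window of Igfbp1 and Igfbp3 had -0.57 and -0.73 against -0.44 and -0.64. Igf1r was lowest, with -1.10 and -1.51 against -1.03 and -1.16. All 4 arrays of Igf1r lay below all 4 of that window, and those of Igfbp2 above those of Igf1, while Ghr and Insr overlapped. With loess within arrays Insr moved to the bottom of the order, with a median M of -1.17 for the control pool and -1.13 for the other, and with the precipitated channel alone it stood next below Igfbp2, at 0.68 and 0.59.

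**Figure D2:**
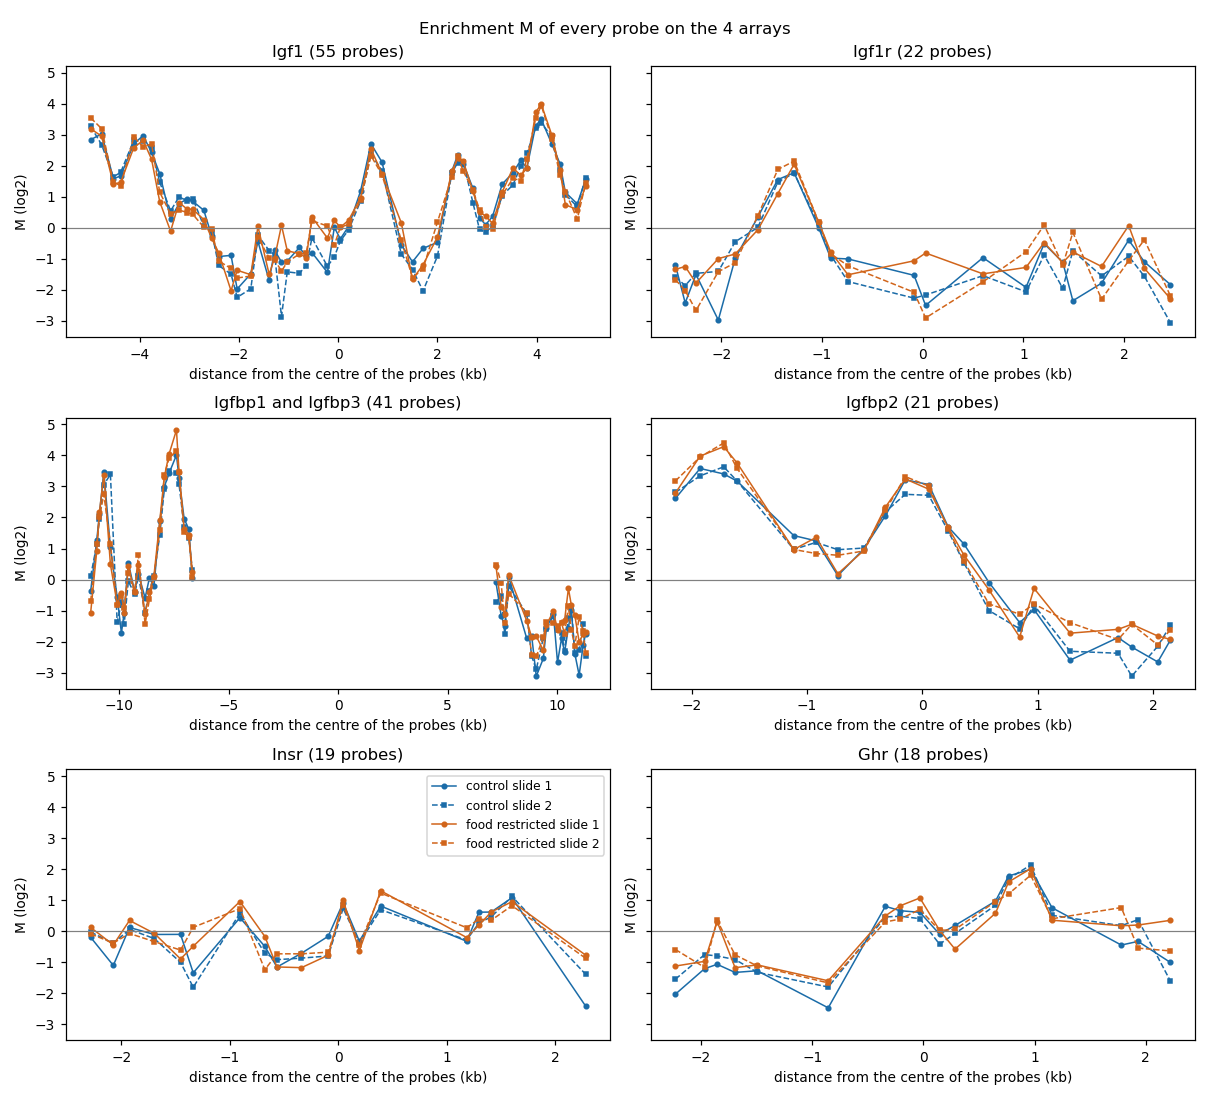
Enrichment M (log2 ratio) of every probe of the 6 loci against the distance from the centre of each locus's probes in kb, with the control arrays in blue, the food restricted arrays in orange, slide 1 as solid lines and slide 2 as dashed lines. The 4 arrays follow much the same peaks and troughs, least closely at Igf1r and Insr, and the peaks of Igf1, Igfbp2 and the Igfbp1 side of chromosome 11 lie above 3.

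Igf1 encodes the ligand of the axis, and its probes form 1 stretch with 3 blocks of at least 3 neighbouring probes above 1 on all 4 arrays, with lower stretches between them. Of its 55 probes, 24 (43.6%) had a mean M over 1 and 9 (16.4%) under -1, beside 31.7% and 28.3% of all probes. A block of 7 probes from 87318374 to 87319660 was above 1 on all 4 arrays, with a median M of 2.70 and 2.68 in the control pool and 2.58 and 2.70 in the food restricted pool. A shorter block of 3 probes lay at 87325650-87325939. Between these blocks the probes at 87324025 and 87324244 also reached a mean M of 2.49 and 1.85. The last block, of 8 probes, lay at 87326663-87327885, with 2.12 and 2.19 in the control pool and 1.92 and 1.96 in the food restricted pool. The highest probe of the locus, at 87327454, had M of 3.49 and 3.37 in the control pool and 3.98 and 3.94 in the food restricted pool. Both food restricted arrays were above both control arrays there, but D was 0.49 on slide 1 and 0.57 on slide 2, so the probe fell just short of a call. The lowest probe, at 87321328, had -1.97 and -2.24 against -1.37 and -1.62.

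Over regions, Igf1 was highest at 87318374-87320043, with M of 2.43 and 2.58 in the control pool and 2.21 and 2.61 in the food restricted pool. The step to the next region, 87320158-87321659, was -2.64 in mean M, the steepest change between neighbouring regions of the locus. The lowest region, 87321746-87323341, had -0.86 and -1.08 in the control pool and -0.54 and -0.83 in the food restricted pool. Its D of 0.32 and 0.25 had the same sign on both slides and did not reach the size for a call.

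Igf1 had 4 of its 55 probes (7.27%) called higher and 0 called lower, beside 9.85% and 2.48% of all probes. All 4 lay in or beside its depleted middle, between 87321328 and 87323143. The probe at 87322839 had M of -0.80 and -0.33 in the control pool and 0.34 and 0.23 in the food restricted pool. It was the only 1 of the 4 whose precipitated signal was well above background in the control pool, and its mean D of 0.85 corresponds to 1.80-fold. With loess within arrays its mean D was 0.35. At 87323143 M was -1.44 and -1.24 against -0.33 and 0.06. With the control signal not well above background, the bound described below was 1.61-fold. At 87322218 the control values of -1.11 and -2.86 lay far apart, and the bound on the difference was under 1-fold, so no fold is given. The bound sets the control pool, on each array, at the higher of its own signal and the lowest signal well above background on that array. The food restricted pool stays as measured. Where quoted, the bound replaces the plain fold because a control signal was not well above background on 1 or both slides. That lowest signal is taken over the whole array and not at the probe, so the bound is no strict lower limit. None of the 3 Igf1 blocks of high M held a called probe.

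Igf1r encodes the receptor for IGF1, and its window had the lowest median M of the 6 in the main setting. Taken alone, the Igfbp3 side of the shared window, described below, was lower, with 78.9% of its 19 probes at a mean M under -1. Of the 22 Igf1r probes, 14 (63.6%) had a mean M under -1, and 2 (9.09%) had one over 1. The share under -1 was 9.09% when centred on the densest value, 36.4% with loess and 22.7% with normexp. At Insr that share was larger with loess, at 52.6%, and with normexp, at 26.3%. At each other locus the share over 1 or under -1 moved by over 1.5 times under at least 1 of these settings. The 2 Igf1r probes over 1 stood next to each other and formed a narrow peak inside the depleted stretch. The probe at 75094779 had M of 1.55 and 1.47 in the control pool and 1.10 and 1.88 in the food restricted pool. The probe at 75094941, the highest of the locus, had 1.77 and 1.76 against 2.05 and 2.15. On either side, the probes at 75094581 and 75095185 were already at a mean M of 0.17 and 0.12, so the peak spanned no more than about the distance between them. The lowest probe, at 75098679, had -1.83 and -3.06 against -2.29 and -2.20, with the precipitated signal not well above background in either pool. The region from 75093763 to 75095531 had a mean M of -0.96 and the region from 75096820 to 75098731 had -1.24, a step of -0.28.

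The slides agreed least at Igf1r. D of slide 1 and slide 2 correlated at -0.19 over its 22 probes, the lowest value of the 6 loci, beside 0.36 over the 176 probes of the axis and 0.29 over all probes. These are descriptions across probes that share fragments and arrays. At Igf1r 2 of 22 probes (9.09%) were called higher, at 75097250 and 75097713, beside 9.85% of all probes. A further 3 (13.6%) passed the size with opposite signs on the slides, beside 3.84% of all probes. The probe at 75097250 had M of -1.92 and -2.07 in the control pool and -1.28 and -0.77 in the food restricted pool. The probe at 75097713 had -2.35 and -0.75 against -0.78 and -0.15, and its 2 control arrays lay as far apart as the pools on slide 1, where D was 1.57. In 7 of the 22 probes (31.8%) the precipitated signal was not well above background on both control arrays, and in 6 (27.3%) on both food restricted arrays. Over all probes these shares were 24.0% and 16.4%.

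Insr encodes the insulin receptor, which binds insulin and shares much of its structure and signalling with the IGF1 receptor. Its 19 probes were the flattest of the 6 loci, with a standard deviation of mean M of 0.72, beside 1.69 over all probes. Only 1 probe had a mean M over 1 and 1 had one under -1. The former, at 3280823, had M of 0.81 and 0.70 in the control pool and 1.31 and 1.23 in the food restricted pool. The latter, at 3282713, had -2.41 and -1.39 against -0.77 and -0.87 and was not well above background in either pool. The highest region was 3281617-3282085, at a mean M of 0.44, and the lowest was 3279531-3280881, at -0.43, with a step of 0.87 between them. Insr had 2 of its 19 probes (10.5%) called higher, beside 9.85% of all probes, of which the probe at 3279100 was above background in both pools. It had -1.34 and -1.80 in the control pool against -0.48 and 0.13, a mean D of 1.39, or 2.63-fold, and the size of D differed between the slides, at 0.86 and 1.93. With loess its mean D was 0.26 and the call was lost. The nearest probes on either side did not share this difference. At 3278983 D was -0.79 on slide 1 and 0.40 on slide 2, and at 3279531 it was 0.52 and 0.15.

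Ghr encodes the growth hormone receptor. Its 18 probes divided into a depleted end, a moderately enriched middle and a mixed end. The region 3532230-3533010 had M of -1.27 and -0.91 in the control pool and -1.08 and -0.76 in the food restricted pool. The region 3534113-3535669 was 1.56 higher in mean M, the steepest step of the locus, with 0.76 and 0.49 against 0.58 and 0.40. The highest probe, at 3535417, had 2.00 and 2.13 in the control pool and 2.02 and 1.81 in the food restricted pool, so the pools overlapped there. The lowest probe, at 3533599, had -2.47 and -1.80 against -1.60 and -1.66.

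Of the 18 Ghr probes, 4 (22.2%) were called higher and 0 lower, beside 9.85% and 2.48% of all probes. At 3532605 M was -1.07 and -0.80 in the control pool and 0.31 and 0.35 in the food restricted pool. Both food restricted arrays were far above both control arrays, and the mean D of 1.26 corresponds to 2.40-fold. This probe was called under 10 of the 11 other settings in which both slides were compared, among them the value table, which repeats the main values. Its mean D with loess was 0.097. At 3532230 M was -2.03 and -1.54 against -1.12 and -0.59, or 1.91-fold, and at 3536237 it was -0.44 and 0.18 against 0.18 and 0.76, or 1.52-fold. With loess the mean D of the former was 0.18 and that of the latter turned to -0.15, and neither was called. The last of the 4, at 3536674, was not well above background in either pool. No region of the locus was called. Region D subtracts medians of M, which can come from different probes. By that measure the region 3536237-3536733, of 3 probes, had D of 0.65 on slide 1 and -0.72 on slide 2. It was the only 1 of the 23 regions that passed the size with opposite signs. Its probes had D of 0.62 and 0.58, 0.53 and -0.92, and 1.36 and 0.97, so only the middle probe had opposite signs.

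Igfbp1 and Igfbp3 encode binding proteins of the same family. IGFBP1 is made largely in the liver and responds to insulin and fasting, and IGFBP3 is the main carrier of IGF1 in adult blood. The 41 probes of their window lie in 2 groups 13801 bases apart. In the RefSeq gene order on GRCm38.p6, Igfbp1 comes directly before Igfbp3, so the group with lower coordinates is described as the Igfbp1 side and the other as the Igfbp3 side. The sides differed in M on all arrays. The 22 probes of the Igfbp1 side had a median M of 0.79 and 0.72 in the control pool and 0.47 and 0.96 in the food restricted pool. The 19 probes of the Igfbp3 side had -1.81 and -1.61 against -1.33 and -1.42. Of the latter, 15 (78.9%) had a mean M under -1 and 0 had one over 1, while on the Igfbp1 side 2 (9.09%) were under -1 and 11 (50.0%) over 1.

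The Igfbp1 side held the highest probe of the axis. At 7098209 M was 4.01 and 3.45 in the control pool and 4.82 and 4.15 in the food restricted pool, and 98.6% of all probes had the same or a lower mean M. It was called higher, with D of 0.81 and 0.70, or 1.69-fold. Its mean D was 0.0008 with quantile normalization, -0.04 with the running median of D taken off and -0.38 in the precipitated channel alone, and 1.63 with loess. It lay in a block of 7 probes at 7097444-7098818, above 1 on all 4 arrays, with a median M of 2.99 and 2.92 in the control pool and 3.30 and 3.38 in the food restricted pool. The region 7097444-7098986 had D of 0.13 and 0.17 and was not called, although with loess D was 0.96 and 0.68. It was 2.62 higher in mean M than the region before it.

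Both probes called lower in the axis also lay on the Igfbp1 side. The outermost, at 7094285, had M of -0.37 and 0.10 in the control pool and -1.07 and -0.70 in the food restricted pool, a mean D of -0.75, or 1.68-fold lower. Both food restricted arrays were below both control arrays, and all arrays were above background. The other, at 7095186, had 1.03 and 3.39 against 0.49 and 1.15. Its control arrays lay further apart than the pools, its signals were not well above background in either pool, and no fold is given.

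On the Igfbp3 side the lowest probe of the window, at 7114626, had M of -3.12 and -2.90 in the control pool and -1.83 and -2.48 in the food restricted pool, and 0.32% of all probes were as low or lower. The precipitated signal there was not well above background in either pool. The region 7114197-7115464 was the lowest of the window, with -1.86 and -1.74 against -1.65 and -1.64. The neighbouring region 7115595-7116935 had -2.12 and -1.73 against -1.37 and -1.62, a D of 0.75 on slide 1 and 0.11 on slide 2. The difference of this region thus passed the size on slide 1 alone. Between the sides, mean M dropped by 2.94 from 7097444-7098986 to 7112787-7113421, the steepest change of the window, although these regions do not adjoin.

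On the Igfbp3 side 14 of the 19 probes (73.7%) had D above 0 on both slides and 0 had D below 0 on both, beside 37.1% and 24.8% of all probes. Most of the 19 had a mean M below -1, a range in which 53965 of 117554 probes of the array had D above 0 on both slides. The median D of these 19 was 0.41 and 0.22. Over all probes with a mean M below -1 the median D was 0.25 and 0.28. In 8 of the 19 (42.1%) the precipitated signal was not well above background on both control arrays, against 3 (15.8%) on both food restricted arrays. Over all probes these shares were 24.0% and 16.4%. The part of this in the differences was not tested. The 3 probes called higher included 7112787, with M of -0.09 and -0.73 in the control pool and 0.43 and 0.48 in the food restricted pool. Its control signal of slide 2 was not well above background, and the bound was 1.78-fold. The other 2, at 7115918 and 7116582, had a control signal not well above background.

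Igfbp2 encodes a further binding protein, abundant in fetal tissues and blood. Its 21 probes spanned mean M from -2.18 to 3.93, the widest spread of the 6 loci by standard deviation (2.13). A block of 4 probes at 72867695-72868288 had a median M of 3.29 and 3.26 in the control pool and 3.87 and 3.77 in the food restricted pool. A block of 4 at 72869518-72870114 had 2.56 and 2.45 against 2.63 and 2.62. A depleted stretch of 5 probes at 72871123-72872037 had -2.18 and -2.31 against -1.73 and -1.62. The region 72867695-72869162 was the highest of all 23, at a mean M of 2.85, and the region 72870681-72872037 was the lowest, at -1.82. The step from the region 72869329-72870465 to the latter was -3.47, the steepest between neighbouring regions of the axis.

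Igfbp2 had 3 of its 21 probes (14.3%) called higher, at both ends of this range, beside 9.85% of all probes. The highest, at 72868121, had M of 3.40 and 3.63 in the control pool and 4.28 and 4.40 in the food restricted pool, or 1.77-fold. Its mean D of 0.82 fell to 0.16 with quantile normalization and 0.15 with the running median taken off, was -0.35 in the precipitated channel alone, and was 1.54 with loess. The probe at 72871123 had -2.60 and -2.31 against -1.73 and -1.39, or 1.86-fold, with signals well above background on all arrays. It was called under 10 of the 11 other settings, again counting the value table, and lost the call with normexp, at a mean D of 0.45. The probe at 72871654 had -2.18 and -3.11 against -1.44 and -1.45, and with its dim control signal the bound was 1.02-fold. The lowest probe, at 72871878, had -2.66 and -2.15 against -1.82 and -2.11 and was not called, since D was 0.84 on slide 1 and 0.04 on slide 2. The region 72870681-72872037 likewise had D of 0.22 and 0.71. The region 72867695-72869162 had D of 0.17 and 0.37 and was not called. With loess within arrays D there was 1.29 and 0.82 and the region was called.

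**Figure D3:**
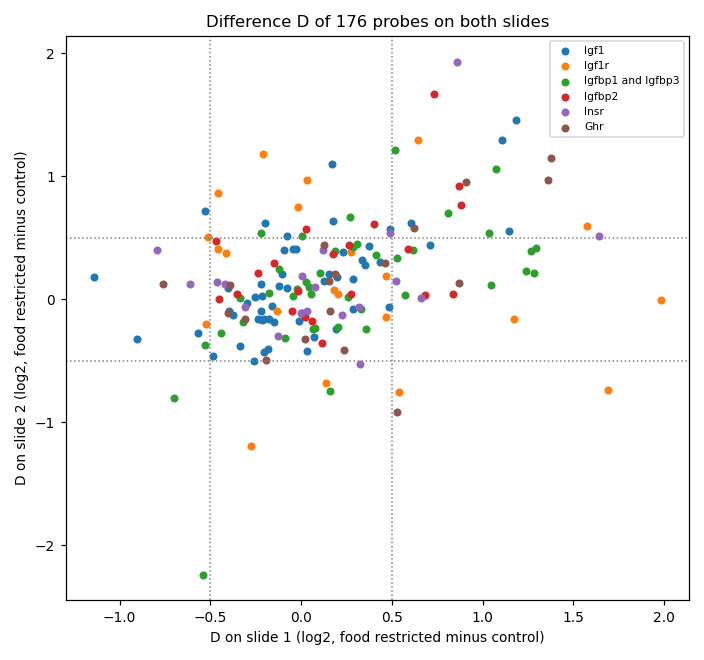
Difference D (log2, food restricted minus control) of the 176 probes on slide 1 (horizontal axis) and slide 2 (vertical axis), coloured by locus, with dotted lines at 0.5 and -0.5. The upper right corner holds the 19 probes called higher, from all 6 loci, and the lower left corner holds the 2 called lower, both from the Igfbp1 side.

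Across the axis, 19 of the 176 probes (10.8%) were called higher in the food restricted pool, close to the 9.85% of all probes. Lower calls numbered 2 (1.14%), beside 2.48% of all probes. Quantile normalization of M gave 13 (7.39%) higher and 5 (2.84%) lower, beside 4.30% and 3.70% of all probes. Centring on the densest value gave 12 (6.82%) and 3 (1.70%), beside 6.33% and 4.47%, and the precipitated channel alone 13 (7.39%) and 10 (5.68%), beside 6.33% and 4.59%. By locus, 4 higher calls fell in Igf1, 2 in Igf1r, 4 in the window of Igfbp1 and Igfbp3, 3 in Igfbp2, 2 in Insr and 4 in Ghr. Of the 23 regions 0 were called higher, beside 4.55% of all regions, and 0 were called lower, beside 0.643%. The median D per locus lay between 0.01 at Igf1 and 0.16 at Igfbp2, beside 0.07 over all probes. The median size of D was 0.30 on slide 1 and 0.29 on slide 2 over the 176 probes, beside 0.32 and 0.31 over all probes. Of the 19 probes called higher, 11 (57.9%) had a precipitated signal above background on an array of each pool and a bright reference. Among all probes called higher this share was 59.7%, close to that of the axis. The other 8 were not well above background on both control arrays, beside 15634 of the 40943 higher calls over all probes.

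Leaving out a slide changed the counts. With slide 2 alone 36 probes (20.4%) were higher and 10 (5.68%) lower, beside 22.3% and 9.12% of all probes. With slide 1 alone 39 (22.2%) were higher and 12 (6.82%) lower, beside 21.1% and 11.2%. Agreement of the slides was then not required. Without the 2 arrays whose value table columns hold each other's values, the food restricted array of slide 2 could be set only against the control array of slide 1, which differs in slide and dye. In that comparison 35 probes were higher and 25 lower, beside 23.3% and 12.7% of all probes, and 3 of the 23 regions (13.0%) were higher, 2 at Igfbp2 and 1 at Ghr, beside 14.7% of all regions.

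**Figure D4:**
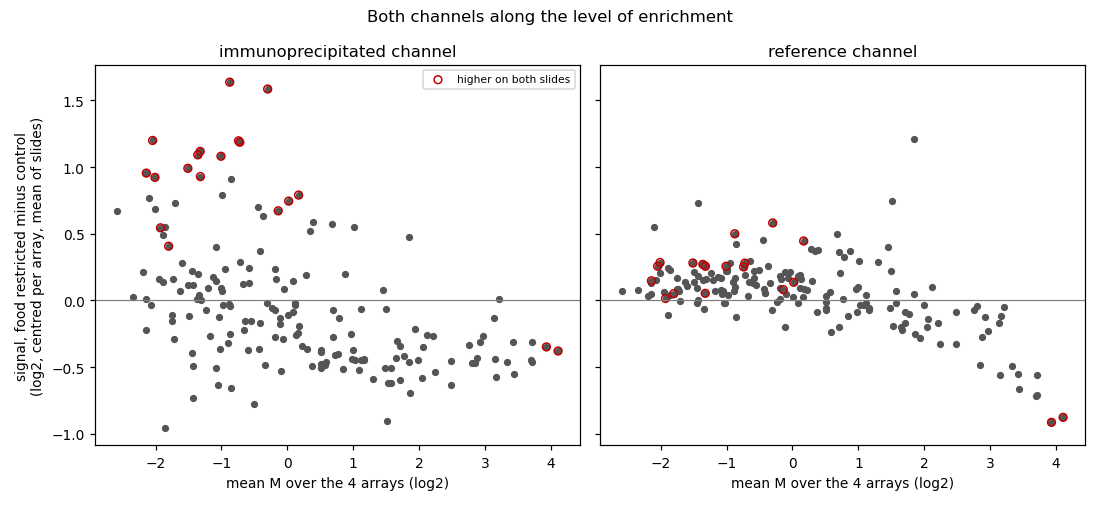
Difference between the pools (log2, food restricted minus control, mean of both slides, each channel centred per array) in the precipitated channel (left) and the reference channel (right) against mean M, for the 176 probes, with red circles around the 19 called higher. At low M the circled probes are high in the precipitated channel, and above 3 the medians of both the precipitated and the reference signal are lower in the food restricted pool.

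The 19 higher calls differed in which channel moved. Among the 12 probes of the axis with a mean M above 3, all in Igf1, Igfbp1 and Igfbp2 stretches, D had medians of 0.42 on slide 1 and 0.43 on slide 2. Channel signals here and below were centred on each array's median, separately from M, so their differences do not add up to D. The precipitated signal at these 12 differed by a median of -0.42 and -0.39 on the log2 scale, food restricted minus control. The total DNA reference differed by -0.61 and -0.57. Over all probes the centred precipitated signal differed by -0.23 and -0.20. The reference was lower in the food restricted pool on both slides at 9 of the 12, beside 93.4% of all probes above 3, and 2 of the 12 (16.7%) were called higher, beside 34.8%. At the highest Igfbp1 probe, 7098209, the precipitated signal differed by -0.42 and -0.34 and the reference by -0.99 and -0.76. At the highest Igfbp2 probe, 72868121, the values were -0.38 and -0.31 against -1.02 and -0.80. Likewise, over all 34322 probes with a mean M above 3 the median D was 0.41 and 0.56, and the reference differed by -0.58 and -0.61.

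At the other end, 52 probes of the axis had a mean M below -1, and 10 of them (19.2%) were called higher, beside 16.4% of all probes in that range. At these 52 the precipitated signal differed by a median of 0.26 and 0.04, and the reference by 0.12 and 0.11. At the Ghr probe 3532230 the precipitated signal differed by 0.82 and 1.04, and at the Igfbp2 probe 72871123 by 0.96 and 0.88, while the reference differed by 0.15 and 0.36 and by 0.33 and 0.24. The median precipitated signal of all probes was 39.1 and 29.5 in the control pool and 63.2 and 43.8 in the food restricted pool, and the part of this in the calls at low M was not tested. Of the 38 probes with a mean M from 1 to 3, 0 were called higher and 1 (2.63%) lower, beside 0.719% and 1.56% of all probes in that range. Of the 74 from -1 to 1, 7 (9.46%) were higher and 1 (1.35%) lower, beside 5.43% and 3.45%.

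Other genes of the pathway were covered by 301 probes in 8 windows: H19 with Igf2, Igf2r, Grb10, Igfbp5, Irs1, Irs2, Igfbp4 and Stat5a with Stat5b. The windows were set from general knowledge of mm9 positions and may include neighbouring genes. Of the 301 probes, 26 (8.64%) were called higher and 6 (1.99%) lower, beside 9.85% and 2.48% of all probes. The window set for H19 and Igf2, the imprinted genes of a non-coding RNA and of the fetal growth factor IGF2, had 5 of 74 probes higher and 1 lower. Its probes lay between 149840797 and 149869086 on chromosome 7, and whether any belongs to H19 was not determined. Igf2r, the clearance receptor for IGF2, had 1 of 26 higher and 1 lower. Igfbp4 had 1 of 19 higher and 1 lower, and Igfbp5, the neighbour of Igfbp2, had 3 of 31 higher and 2 lower. Grb10, an adaptor that restrains insulin and IGF1 receptor signalling, had 0 of 15 in either direction. Irs1, which passes the signal of both receptors on, had 7 of 26 (26.9%) higher and 1 lower, with a median M of -1.52 for the control pool and -1.14 for the other. Of its probes 65.4% had a mean M below -1, a range in which 16.4% of all probes were called higher. Its relative Irs2 had 2 of 19 higher and 0 lower. Stat5a and Stat5b, transcription factors downstream of the growth hormone receptor, had 7 of 91 higher and 0 lower.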

How the data were processed

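The submitters' processing notes name Agilent Feature Extraction 10.5.1.1 for the scanner files of the 4 arrays. Processed intensity was background-subtracted and dye-normalized within each array, per the file headers, and probe positions are on mm9. The deposited log10 ratio was not used for results. The deposited value table holds log2 ratios of red over green, and its columns for the food restricted array of slide 1 and the control array of slide 2 equal each other's scanner file within 0.001 (r = -0.904 with their own). The sources used here do not name the antibody.

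Of 415814 probes, 65 with outlier flags were left out. M, D and the calls were computed as the report defines them, with no loess or quantile step in the main setting. Regions join probes whose starts lie at most 500 bp apart, and runs longer than 2000 bp are divided into equal pieces of at most that length. At least 3 probes are required, and the median M is the value. The code for the calls was checked on simulated data, with shifts above the call size and less spread between repeats than the arrays show. That check does not measure how the calls perform on data like these. Alternatives were centring, loess, quantile, normexp (offset 50), filters on dim probes, pairing by slide, the value table, a running median of D over 5001 probes, the precipitated channel alone, a size of 1, and leaving out slides. In each locus the probe and region with the highest and lowest mean M and the steepest step between regions are named, and the called probes and other features beside them were chosen after their values were seen. Members, lists and this rule were chosen with earlier results of these data known. Analyses used R 4.3.3, limma 3.58.1, Python 3.11.15, numpy 2.4.6 and pandas 2.3.3. With 1 pool per group and only technical repeats, the spread between pools could not be measured, and no statistical test between the pools was run.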

Additional observations from a re-analysis of the deposited data

How the results depend on the processing

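Beside the main 19 higher and 2 lower probes and 0 called regions, the following values moved under the alternatives, and the cause was not tested. Centred on the densest value of M, there were 12 higher probes (6.82%, beside 6.33% of all probes). Median D was then -0.13 at Igf1, 0.005 at Igf1r, 0.01 at Igfbp1 and Igfbp3, 0.023 at Igfbp2, -0.042 at Insr and 0.011 at Ghr. With no centring, there was 1 lower probe (0.568%, beside 1.68% of all probes), and median D was 0.23 at Igf1r, 0.23 at Igfbp1 and Igfbp3, 0.25 at Igfbp2, 0.18 at Insr and 0.24 at Ghr. With loess, there were 3 higher regions (13.0%, beside 8.52% of all regions), and median D was -0.083 at Igf1r, 0.054 at Insr and 0.10 at Ghr. With quantile normalization, there were 5 lower probes (2.84%, beside 3.70% of all probes), and median D was 0.005 at Igf1r, 0.015 at Igfbp1 and Igfbp3, 0.073 at Igfbp2 and 0.054 at Ghr. With normexp, there were 10 higher probes (5.68%, beside 5.41% of all probes) and 0 lower probes (beside 0.011%). Its median D was 0.039 at Igf1r and 0.047 at Igfbp1 and Igfbp3. Without dim reference or saturated probes, median D was 0.10 at Igf1r, 0.057 at Insr and 0.10 at Ghr. Without dim precipitated probes, 132 probes of the axis were left. Of these, 12 (9.09%) were higher and 1 (0.758%) lower, beside 10.1% and 0.270% of all probes left. Their median D was 0.36 at Igf1r, 0.15 at Insr and 0.21 at Ghr. With no replicate block, comparing arrays across the slides, there was 1 lower probe (0.568%, beside 1.75% of all probes). Across the slides median D was 0.12 at Igf1r, 0.21 at Igfbp1 and Igfbp3, 0.033 at Insr and 0.041 at Ghr. With the running median of D taken off, there were 12 higher probes (6.82%, beside 4.27% of all probes) and 4 lower probes (2.27%, beside 3.49%). There was also 1 higher region (4.35%, beside 0.374% of all regions). The remaining median D was 0.021 at Igf1r, 0.019 at Igfbp1 and Igfbp3, 0.078 at Igfbp2 and 0.063 at Ghr. With the precipitated channel alone, there were 10 lower probes (5.68%, beside 4.59% of all probes). In that channel median D was -0.32 at Igf1, -0.055 at Igf1r, -0.093 at Igfbp1 and Igfbp3, -0.30 at Igfbp2, -0.024 at Insr and -0.15 at Ghr. In the comparison added after seeing the data, without the 2 arrays of exchanged value table columns, there were 35 higher probes, 25 lower probes and 3 higher regions. These were 19.9%, 14.2% and 13.0%, beside 23.35% and 12.7% of all probes and 14.7% of all regions. Median D was -0.027 at Igf1r, -0.082 at Insr and 0.067 at Ghr. With a size of 1, there were 4 higher probes (2.27%, beside 1.98% of all probes) and 0 lower probes (beside 0.434%). With either slide left out, 36 to 39 probes were higher and 10 to 12 lower, beside 21.1% to 22.3% and 9.12% to 11.2% of all probes. Slide 2 alone gave 1 higher (4.35%) and 1 lower region (4.35%), beside 13.8% and 3.75% of all regions. Slide 1 alone gave 2 higher (8.70%) and 0 lower, beside 12.35% and 4.49%. The value table moved no count and no median D. Each array was given the column that equals its scanner file, so this setting repeats the main values and could not move. The table as labelled was not run. Means over probes gave 0 called regions. The region 3536237-3536733 at Ghr was called with the running median taken off and was among the 3 with loess. In the former setting alone, region D was the median of the probes' D and not a difference of medians of M. The median of its probes' D was already 0.62 and 0.58 in the main setting. Over all probes median D was -0.16 and 0.01 when centred on the densest value, 0.14 and 0.16 with no centring and -0.23 and -0.20 with the precipitated channel alone. The order of the loci by M changed under loess, normexp, the filter on dim precipitated probes and the precipitated channel alone. In the control pool it also changed without slide 2 and without the 2 arrays of exchanged value table columns. A dim precipitated signal limits precision: 28 of 176 probes (15.9%) were not well above background on both control arrays, beside 24.0% of all probes.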
